A study of Danio rerio with 4 samples.

Results

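Radial glia of the zebrafish trunk were taken from droplet single-cell RNA sequencing of whole dissected trunks. They were chosen by a gene rule in all 4 libraries, and 747 of 19611 retained cells (3.81%) met it. Retained cells had more than 200 but fewer than 4000 genes, and less than 5% of their unique molecular identifiers (UMIs, the counted transcript copies) were mitochondrial. A member had a UMI of at least 3 of 9 glial and progenitor genes (gfap, sox2, sox3, sox19a, fabp7a, her4.1, her4.2, slc1a2b and atp1b4). It also had a UMI of fewer than 2 of 4 neuron genes (elavl3, elavl4, gng3 and snap25a) and of fewer than 2 floor plate and p3 domain genes (shha, shhb, foxa2, nkx2.2a and nkx2.9; sspo, the sixth of that list, was not analysed here). These values chose the members, so the levels of the rule genes are a description and carry no test.

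The flt1 mutant libraries came from embryos labelled flt1ka604 and the WT libraries from wild-type embryos, all 3 days post-fertilisation (dpf) and with no treatment stated. Flt1 binds Vegf and holds it away from its signalling receptor, and the study's methods describe the allele as an early frameshift that removes the soluble and the membrane form in every cell. Each genotype had 2 libraries, each from a pool of dissociated trunks of unstated size, with the heads removed before dissociation according to the methods. Nothing stated says that the pools of a genotype came from separate clutches, so p-values measure the spread between these libraries only. Transcript 3′ ends were counted, which cannot show the lesion, and the flt1 UMI count of the radial glia was 0 and 1 in flt1 mutants and 0 and 0 in WT, so the genotype label could not be checked in these cells.

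Radial glia are the neural stem and support cells that line the central canal and the brain ventricles and send a process to the outer surface of the neural tube. In zebrafish they persist into adult life and take on tasks that astrocytes have in mammals, such as glutamate and glycine uptake, and many carry motile cilia, hence the name ependymal radial glia. Notch receptors on a radial glial cell, bound by Delta or Jagged ligands of its neighbours, switch on her and hey repressor genes, which hold back the proneural genes and keep the cell a progenitor.

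The radial glia numbered 134 and 146 in the flt1 mutant libraries and 163 and 304 in the WT libraries. Their median depth was 5995 and 5722.5 UMIs per cell in flt1 mutants, against 7110 and 6112.5 in WT. Their summed counts were 1005525 and 1045232 UMIs in flt1 mutants, against 1455451 and 2530320 UMIs in WT. Levels are given below as CPM, the count scaled to 1000000 UMIs of these sums, and UMI sums cannot tell fewer expressing cells from less RNA per cell. No cell barcode was shared between libraries among the radial glia, and 2 to 10 were shared by any pair of libraries among retained cells. For comparison, 1339 neuron-like, 143 floor plate-like and 3193 epidermis-like cells were set apart by their own marker rules, the last as cells that should lack neural genes.

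Cells at the edge of the rule were thinner in glial RNA. Exactly 3 rule genes were detected in 204 of the 747 cells (27.3%), and all 9 in 90 cells. A list of 30 astroglial genes took 13.3 of every 10000 UMIs in the 858 retained cells with 2 rule genes, just outside the rule. Just inside it, cells with 3 rule genes had 24.5, and cells with 9 had 268 per 10000. Keratin and other skin genes went the other way at that edge, with 503 UMIs per 10000 in cells with 3 rule genes and 28.2 in cells with 4. They were not confined to the edge, with 109 per 10000 in cells with 9 rule genes. The sums over all 747 cells given below hold these skin transcripts.

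The spinal cord label was checked against genes that the rule did not use. Hox genes mark hindbrain and trunk levels of the body axis and are silent in the forebrain and midbrain, where otx2b, six3b, six6b, rx1 and en2b are used. At least 3 of 48 Hox genes were detected in 489 radial glia (65.5%), which are called Hox-rich here. In 152 others (20.3%) fewer than 3 Hox genes and at least 1 of 23 forebrain, midbrain and eye genes were detected, a head profile, and 115 of these had no Hox UMI at all. The remaining 106 cells (14.2%) had fewer than 3 Hox genes and none of the 23 head genes, and 51 of them had no Hox UMI. Their median depth was 3987 UMIs, against 5841 in Hox-rich cells. Hox-rich cells thus had genes of hindbrain or trunk levels, which 3 Hox genes do not tell apart, and the head-profile cells went against the label of spinal cord, although heads had been cut away.

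The libraries differed in this make-up. Hox-rich cells were 91.0% and 69.9% of the radial glia in flt1 mutants, against 66.3% and 51.6% in WT. Head-profile cells were 1.49% and 18.5% in flt1 mutants, against 20.2% and 29.6% in WT, so that flt1 mutant 1 held 2 of them and WT 2 held 90. In cells thinned to 2000 UMIs, at least 3 Hox genes were seen in 57.8% of radial glia, 63.6% of neuron-like cells and 3.02% of epidermis-like cells. With all UMIs, as used to call Hox-rich cells, the shares were 65.5%, 66.2% and 27.7%, at median depths of 6201, 4254 and 14965 UMIs. After thinning, at least 1 head gene was seen in 19.0%, 17.4% and 4.37% of the same classes. With all UMIs, as used to call the head profile, these shares were 26.1%, 21.3% and 14.2%. Because head-profile cells are unequal between genotypes, the main genotype results are also given for a Hox-rich core of 387 cells (51.8% of the radial glia), with at least 4 rule genes and at least 3 Hox genes. The core held 101 and 80 cells in flt1 mutants, against 81 and 125 in WT, and was chosen after seeing the data.

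**Figure D1:**
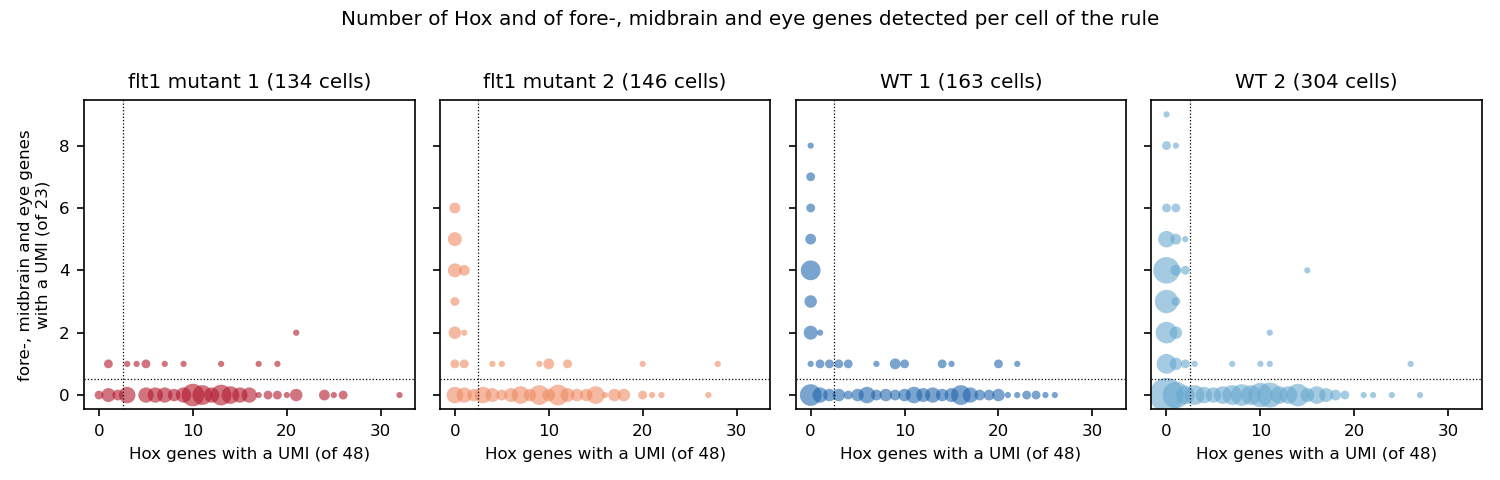
Each panel is a library, and each circle stands for radial glia with a given number of Hox genes (horizontal axis) and of forebrain, midbrain and eye genes (vertical axis), its area growing with the number of cells. The cells run along one axis or the other, 43 of 489 Hox-rich cells had a head gene, and the arm of head-profile cells is nearly empty in flt1 mutant 1, with 2 cells.

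The head-profile cells carried progenitor genes and little astroglial RNA. otx2b, a forebrain and midbrain regulator, stood at 199 CPM in flt1 mutant 2, against 68.6 and 127 CPM in WT 1 and WT 2. six6b and rx1, regulators of the eye field, stood at 113 and 86.1 CPM in flt1 mutant 2, against 97.4 and 57.5 in WT 1 and 138 and 117 in WT 2. The midbrain-hindbrain boundary gene en2b was at 123 CPM in flt1 mutant 2, against 62.0 and 71.4 CPM in WT. Within these cells the chromatin protein gene hmgb2a reached 8496 CPM in flt1 mutant 2, against 5478 and 6631 CPM in WT. gfap, the intermediate filament of astroglia, had 0 CPM there in flt1 mutant 2, against 15.5 and 32.2 CPM in WT. Pooled over libraries, head-profile cells had 6687 CPM of fabp7a and 440 CPM of sox3 but 21.1 CPM of vim and 6.22 CPM of foxj1a. They met the rule through fabp7a, the sox genes and her4 genes, and the astroglial list took 24.9 to 28.9 UMIs per 10000 of them in the 3 libraries that held more than 2, against 175 to 222 in the core of the 4 libraries.

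All 13 Hox paralogue groups were present in the core, which was chosen on Hox genes. The groups held 1 to 6 genes each, and these shares do not give the span of the cord. Group 3 was detected in 86.6% of core cells and group 4 in 74.7%, while the most anterior group 1 was detected in 33.6%. Group 9 was detected in 87.3% with 878 ± 132 CPM (SD, n = 4 libraries). Group 13, used at the tail end, was detected in 34.4% of core cells, at 388 and 494 CPM in flt1 mutants and at 492 and 251 CPM in WT. The libraries of the genotypes overlapped for group 13.

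Astroglial genes were high in all 4 libraries of radial glia and higher in the core. gfap stood at 8434 and 4599 CPM in flt1 mutants, against 3542 and 2924 CPM in WT, and averaged 13.4 ± 4.3 CPM in neuron-like cells and 1.84 CPM in epidermis-like cells. Floor plate-like cells, which line the canal ventrally, averaged 2664 CPM of gfap, and the core 9603 ± 1806 CPM. fabp7a, a brain fatty acid binding protein, stood at 5942 and 6789 CPM in flt1 mutants, against 6448 and 6668 CPM in WT, the most even of the rule genes between libraries. slc1a2b, the main glutamate transporter of astroglia, had 1085 and 724 CPM in flt1 mutants, against 776 and 659 CPM in WT, and averaged 87.1 CPM in neuron-like cells. At 2000 UMIs per cell, gfap was seen in 53.2% of radial glia and 86.1% of the core, but in 5.41% of head-profile cells, 2.60% of neuron-like and 0.377% of epidermis-like cells. gfap and vim were higher in every flt1 mutant library than in either WT library over all members, an order that the share of Hox-rich cells also has. The order was the same in the core, where 20.3% of all genes tested were higher in flt1 mutants without overlap of libraries. Of the 9 glial and progenitor genes of the rule, 2 were higher and 1 lower without overlap in the core. Their median there was 0.06 on the log2 scale, flt1 mutant over WT. The part of cell make-up in the levels of gfap and vim was not tested. In the core gfap had 12072 and 9793 CPM in flt1 mutants, against 8520 and 8029 CPM in WT. Core levels of vim were 5537 and 5377 CPM in flt1 mutants, against 4436 and 4013 CPM in WT.

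Genes outside the rule gave the same picture of astroglial function. vim, the second intermediate filament, had 3876 and 2552 CPM in flt1 mutants, against 1876 and 1464 CPM in WT. slc6a9, the glycine transporter that clears glycine from around synapses, had 1240 and 789 CPM in flt1 mutants, against 563 and 593 CPM in WT, and averaged 18.6 CPM in neuron-like cells. hepacama, an adhesion protein of astroglia that binds connexins, averaged 252 ± 90.4 CPM, against 2.26 CPM in neuron-like cells. cx43, the gap junction protein of astrocytes, had 319 and 229 CPM in flt1 mutants, against 174 and 214 CPM in WT. The sodium bicarbonate transporter slc4a4a had 602 and 386 CPM in flt1 mutants, against 251 and 319 CPM in WT. The growth factor mdka reached 5520 and 3999 CPM in flt1 mutants, against 3555 and 2695 CPM in WT.

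The progenitor factors sox2, sox3 and sox19a, members of the SoxB1 group that keeps neural cells undifferentiated, varied less between libraries than gfap and vim. sox2 had 465 and 364 CPM in flt1 mutants, against 329 and 285 CPM in WT. sox3 had 314 and 397 CPM in flt1 mutants, against 377 and 346 CPM in WT, with overlapping libraries. In neuron-like cells sox2, sox3 and sox19a averaged 20.8, 19.6 and 3.58 CPM. elavl3, an RNA binding protein of new neurons, was still at 658 and 475 CPM in radial glia of flt1 mutants, against 359 and 227 CPM in those of WT, although the rule allowed at most 1 neuron gene per cell. Its mean in neuron-like cells was 1905 CPM.

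**Figure D2:**
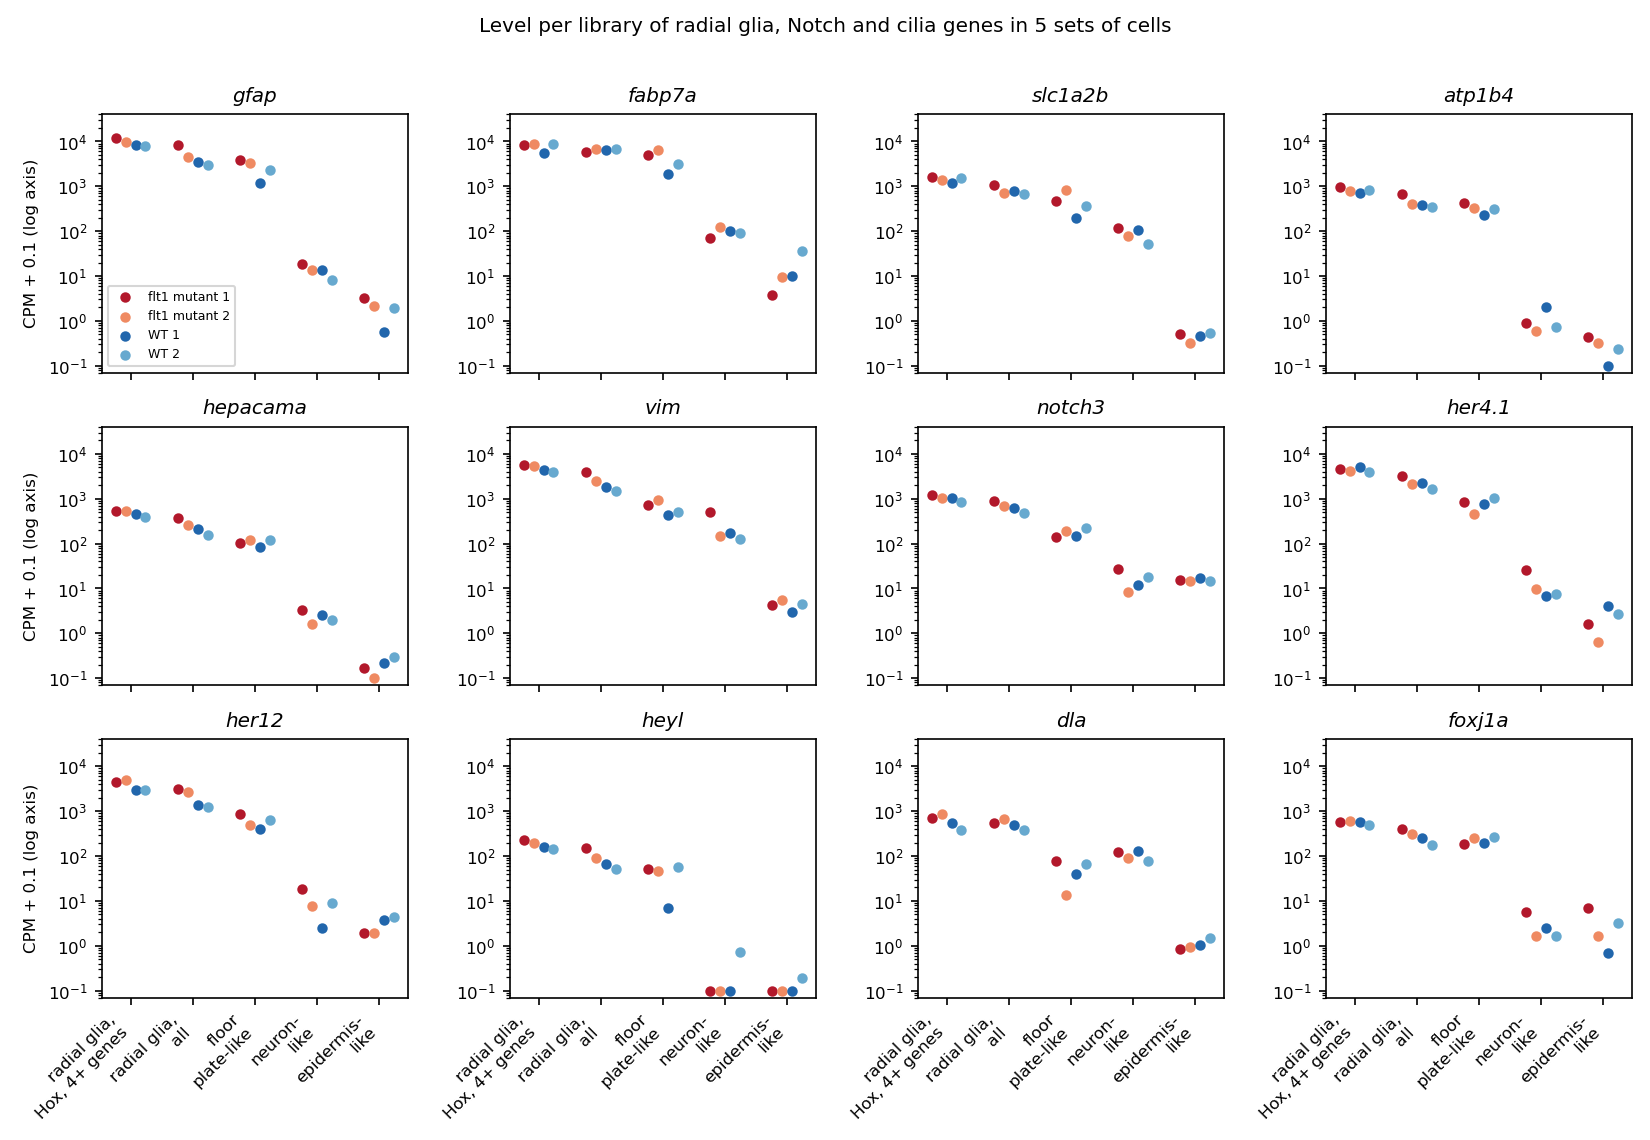
Points are the levels of 12 genes in CPM + 0.1 (log axis) in each library, in 5 sets of cells: the Hox-rich core, all radial glia, floor plate-like, neuron-like and epidermis-like cells. gfap, atp1b4, hepacama and the Notch targets her4.1, her12 and heyl had means of 0.16 to 13.4 CPM in neuron-like cells, against 9603 CPM of gfap and 4402 CPM of her4.1 in the core, while foxj1a of floor plate-like cells, at 227 CPM, came near the radial glia.

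Receptors, ligands and targets of Notch signalling were all expressed. Among receptors, notch3 stood at 884 and 676 CPM in flt1 mutants, against 620 and 477 CPM in WT, and averaged 16.1 ± 8.2 CPM in neuron-like cells. notch1a averaged 252 ± 52.3 CPM and notch1b 94.4 ± 6.0 CPM over the 4 libraries, against 49.2 and 2.49 CPM in neuron-like cells. At 2000 UMIs notch3 was seen in 59.0% of radial glia and 3.92% of epidermis-like cells, and notch1a in 35.0% and 1.96%.

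The Delta ligand genes were not confined to neuron-like cells. dla stood at 550 and 683 CPM in radial glia of flt1 mutants, against 482 and 373 CPM in those of WT, and averaged 104 CPM in neuron-like cells. dld averaged 110 CPM in radial glia, against 3.00 CPM in neuron-like cells. dlb, by contrast, averaged 164 ± 49.9 CPM in radial glia, against 147 ± 51.1 CPM in neuron-like cells, and exceeded them in 2 of 4 libraries. The Jagged gene jag1a averaged 42.2 ± 32.6 CPM and jag1b 33.8 ± 14.4 CPM, and levels of different genes are not compared here, since 3′ tags differ in capture. lfng, which modifies Notch so that it answers Delta better than Jagged, had 545 and 662 CPM in flt1 mutants, against 551 and 430 CPM in WT.

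Targets of Notch were far higher than in neuron-like cells. her4.1 had 3176 and 2186 CPM in flt1 mutants, against 2267 and 1611 CPM in WT, and averaged 12.4 CPM in neuron-like and 777 CPM in floor plate-like cells. her12 had 3110 and 2619 CPM in flt1 mutants, against 1369 and 1243 CPM in WT. The her4 genes, her12 and her15.1 have near-identical copies, so their counts are uncertain where reads could be split between copies. heyl, another target, had 153 and 90.9 CPM in flt1 mutants, against 66.6 and 51.4 CPM in WT, and averaged 0.16 CPM in neuron-like cells. her6, a repressor of progenitor zones, had 943 and 994 CPM in flt1 mutants, against 1229 and 1211 CPM in WT, and was also broad in neuron-like cells with a mean of 685 CPM. Thus her12 and heyl were higher and her6 lower in both flt1 mutant libraries, and the tests of her12 and heyl are given below.

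Motile cilia genes were the other large programme. foxj1a, the master regulator of motile cilia, stood at 410 and 303 CPM in flt1 mutants, against 255 and 177 CPM in WT, and averaged 2.79 CPM in neuron-like and 227 CPM in floor plate-like cells. enkur, a component of ciliary microtubules, had 92.5 and 80.4 CPM in flt1 mutants, against 46.0 and 39.9 CPM in WT. daw1, a dynein assembly factor, had 75.6 and 78.5 CPM in flt1 mutants, against 50.2 and 46.2 CPM in WT. The list of 18 cilia genes took 8.58 and 7.40 UMIs per 10000 in flt1 mutants, against 5.73 and 4.02 in WT. It took a mean of 0.39 in neuron-like cells, 11.04 in floor plate-like cells and 0.17 in head-profile cells. At 2000 UMIs foxj1a was seen in 24.2% of radial glia, 40.5% of the core and 0.415% of epidermis-like cells.

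Among genes outside the rule with at least 50 UMIs and a UMI in every library, the 15 with the largest ratio of mean CPM over neuron-like cells, taken where neuron-like cells had a UMI, included Notch targets and cilia genes. Notch targets were heyl, her12 and her4.4, with ratios of 579, 221 and 171. Cilia and axoneme genes were armc4, iqca1, ccdc146 and dnah12, with ratios of 202, 183, 147 and 141. opn4.1, an opsin of the melanopsin type, had a ratio of 546, pkd1b, a polycystin, 389, and tbata 495. opn4.1 itself had 67.6 and 44.0 CPM in flt1 mutants, against 30.2 and 28.9 CPM in WT, and averaged 23.9 CPM in floor plate-like cells and 0.11 CPM in epidermis-like cells. ly6m5, hspb15, si:ch211-66e2.5, si:dkeyp-110a12.4 and si:ch73-265d7.2 completed the list. Another 8 genes met the minimum with no UMI in neuron-like cells and so have no ratio. Set against 3 UMIs over all neuron-like cells, dbx1b was at least 326-fold higher, and the others, her3, CABZ01093502.2, ak8, dnai1.2, gpr37l1b, lrrc51 and si:ch211-226m7.4, at least 24.98 to 47.7-fold higher. These ratios rest on few UMIs in neuron-like cells and describe the rule's own contrast.

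Over all other retained cells the 15 leading genes included patterning factors of the neural tube and Notch targets. dbx1b, prdm12b, her3 and gsx1, transcription factors of intermediate and dorsal progenitor domains, had ratios of 150, 140, 129 and 97.3. sox21b had 75.8, the secreted factor fgfbp3 75.7, hepacama 73.5 and the complement-type protease masp1 83.9. heyl, her4.4, her12 and hspb15 stood in both lists of 15, and CABZ01093502.2, si:ch73-21g5.7 and pxdc1a completed the second. Of the 8018 genes that met the same minimum of UMIs, 1595 were over 2-fold higher than in neuron-like cells.

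The genes that varied most between single radial glia, relative to counting noise, were those of other cells. All 15 of the rule were muscle, globin or keratin genes, from actc1b with a variance of 5907 times the Poisson value to myl1 with 1359 times, and krt4 had 2602 times. Skin genes took 56.4 and 66.3 of every 10000 UMIs in radial glia of flt1 mutants, against 233 and 272 in those of WT, and a mean of 2051 in epidermis-like cells. Muscle genes took 295 and 92.0 in flt1 mutants, against 36.8 and 390 in WT, and red blood cell genes 225 and 302 in flt1 mutants, against 83.1 and 230 in WT. In the core, skin genes took 22.6 and 17.9 in flt1 mutants, against 148 and 20.9 in WT, so WT 1 stood apart there. Red blood cell genes in the core took 238 and 6.90 in flt1 mutants, against 5.37 and 6.02 in WT, so flt1 mutant 1 stood apart. Endothelial genes took 0.11 and 0.83 in radial glia of flt1 mutants, against 0.13 and 0.19 in those of WT, with 1 of 8 genes at 0.

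Genes of dorsal, intermediate and ventral progenitor domains were all found. pax3a, a dorsal regulator, had 218 and 160 CPM in radial glia of flt1 mutants, against 175 and 94.5 CPM in those of WT. dbx1b of the intermediate cord had 154 and 117 CPM in flt1 mutants, against 151 and 39.1 CPM in WT, and was at 0 CPM in neuron-like cells. olig2, which marks the motoneuron and oligodendrocyte progenitor domain, had 200 and 155 CPM in flt1 mutants, against 140 and 110 CPM in WT. At 2000 UMIs pax3a was seen in 22.4% of radial glia, olig2 in 10.8% and dbx1b in 9.73%. In epidermis-like cells pax3a was seen in 0.565%, and olig2 and dbx1b in 0.0377% each.

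Cells with olig2 rarely had a dorsal or dbx1 gene, while dorsal and dbx1 genes overlapped. A UMI of a pax3 or pax7 gene was found in 176 of 387 core cells (45.5%), of a dbx1 gene in 89, of a nkx6 gene in 75 (19.4%) and of olig2 in 68 (17.6%). pax3 or pax7 and olig2 were found together in 2 cells, which is 2.94% of the olig2 cells, and dbx1 and olig2 in 1 cell. olig2 and a nkx6 gene shared 43 cells, 63.2% of the olig2 cells. pax3 or pax7 and dbx1 shared 60 cells, 67.4% of the dbx1 cells.

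The domains also differed in glial genes, described without a test because the splits were made on the same cells. Core cells with olig2 had 10572 ± 3328 CPM of vim, against 3577 ± 469 CPM in cells without it (SD, n = 4 libraries), higher in 4 of 4 libraries. The same cells had 304 CPM of slc6a9, against 1843 CPM without olig2, and 119 CPM of slc4a4a, against 899 CPM, both lower in 4 of 4 libraries. Cells with olig2 were deeper, with median UMIs of 7090.5 and 5713 in flt1 mutants and 8716 and 5648 in WT. Without it these were 5339 and 4733 in flt1 mutants and 6180.5 and 5472.5 in WT. In WT 1 skin genes took 8.60 UMIs per 10000 with olig2, against 179 without. Muscle genes took 121, against 547, in WT 2, and 103, against 102, in flt1 mutant 2. The part of depth and of these transcripts in this split was not tested. Cells with dbx1 had 3709 ± 777 CPM of slc6a9, against 920 ± 305 CPM without it, and 7319 CPM of her4.1, against 3508 CPM. Dorsal cells with pax3 or pax7 had 499 CPM of the glutamate transporter slc1a3a, against 72.9 CPM without. The growth factor mdkb stood at 3335 CPM with pax3 or pax7, against 999 CPM without. The glycine transporter, the bicarbonate transporter and mdkb were thus low in olig2 cells and vim was high, while the astroglial list as a whole was higher in the dorsal cells, with 290 and 236 UMIs per 10000 in flt1 mutants and 252 and 211 in WT, against 176 and 198 in flt1 mutants and 129 and 156 in WT in cells without pax3 or pax7.

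Core cells of the tail end, marked by Hox13 genes, differed in several astroglial genes, described without a test. The astroglial list as a whole went both ways, with 224 and 189 UMIs per 10000 with Hox13 in flt1 mutants and 205 and 153 in WT, against 221 and 228 in flt1 mutants and 180 and 184 in WT without. Those with a Hox13 UMI, 133 of 387, had 3106 and 1289 CPM of fabp7a in flt1 mutants and 882 and 1513 CPM in WT. Core cells without one had 11141 and 12408 CPM in flt1 mutants and 8477 and 11739 CPM in WT, so the sets did not overlap in any library. slc1a2b was at 386 ± 316 CPM with Hox13, against 1914 ± 133 CPM without, slc6a9 at 777 against 1921, cx43 at 140 against 538, and glula, which turns glutamate into glutamine, at 34.0 against 261, all lower in 4 of 4 libraries. gfap was also lower, with 7225 ± 1677 CPM against 10776 ± 1923 CPM. In the other direction, notch3 was at 1381 ± 161 CPM with Hox13, against 874 ± 151 CPM without, sox3 at 614 ± 63.7 against 387 ± 22.1, and foxj1a at 815 ± 143 against 436 ± 44.7, all higher in 4 of 4 libraries. Median depth was 6265 and 4492 UMIs with Hox13 in flt1 mutants and 5589.5 and 4541.5 in WT, against 5621 and 5297.5 in flt1 mutants and 6757 and 5800 in WT without.

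Cells with dla or dld, 235 of the 387 core cells, also differed in many genes. They had 523 ± 90.6 CPM of notch1a, against 84.6 ± 11.7 CPM in cells without, 584 CPM of hes6, a Her antagonist that promotes differentiation, against 217 CPM, and 1112 CPM of lfng, against 302 CPM. sox3 stood at 659 CPM, against 203 CPM, and elavl3 at 879 CPM, against 81.6 CPM, both rule genes and both higher in 4 of 4 libraries. Notch targets took 160 and 179 UMIs per 10000 of these cells in flt1 mutants and 191 and 145 in WT, against 99.3 and 106 in flt1 mutants and 104 and 94.9 in WT in cells without dla and dld. Replication genes took 3.69 and 4.204 in flt1 mutants and 12.7 and 15.5 in WT, against 0.965 and 1.44 in flt1 mutants and 4.104 and 2.77 in WT without. Lower in cells with a Delta UMI were cx43, at 290 CPM against 566, slc4a4a, at 544 against 1022, bmp4, at 28.8 against 192, and enkur, at 96.4 against 173.

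**Figure D3:**
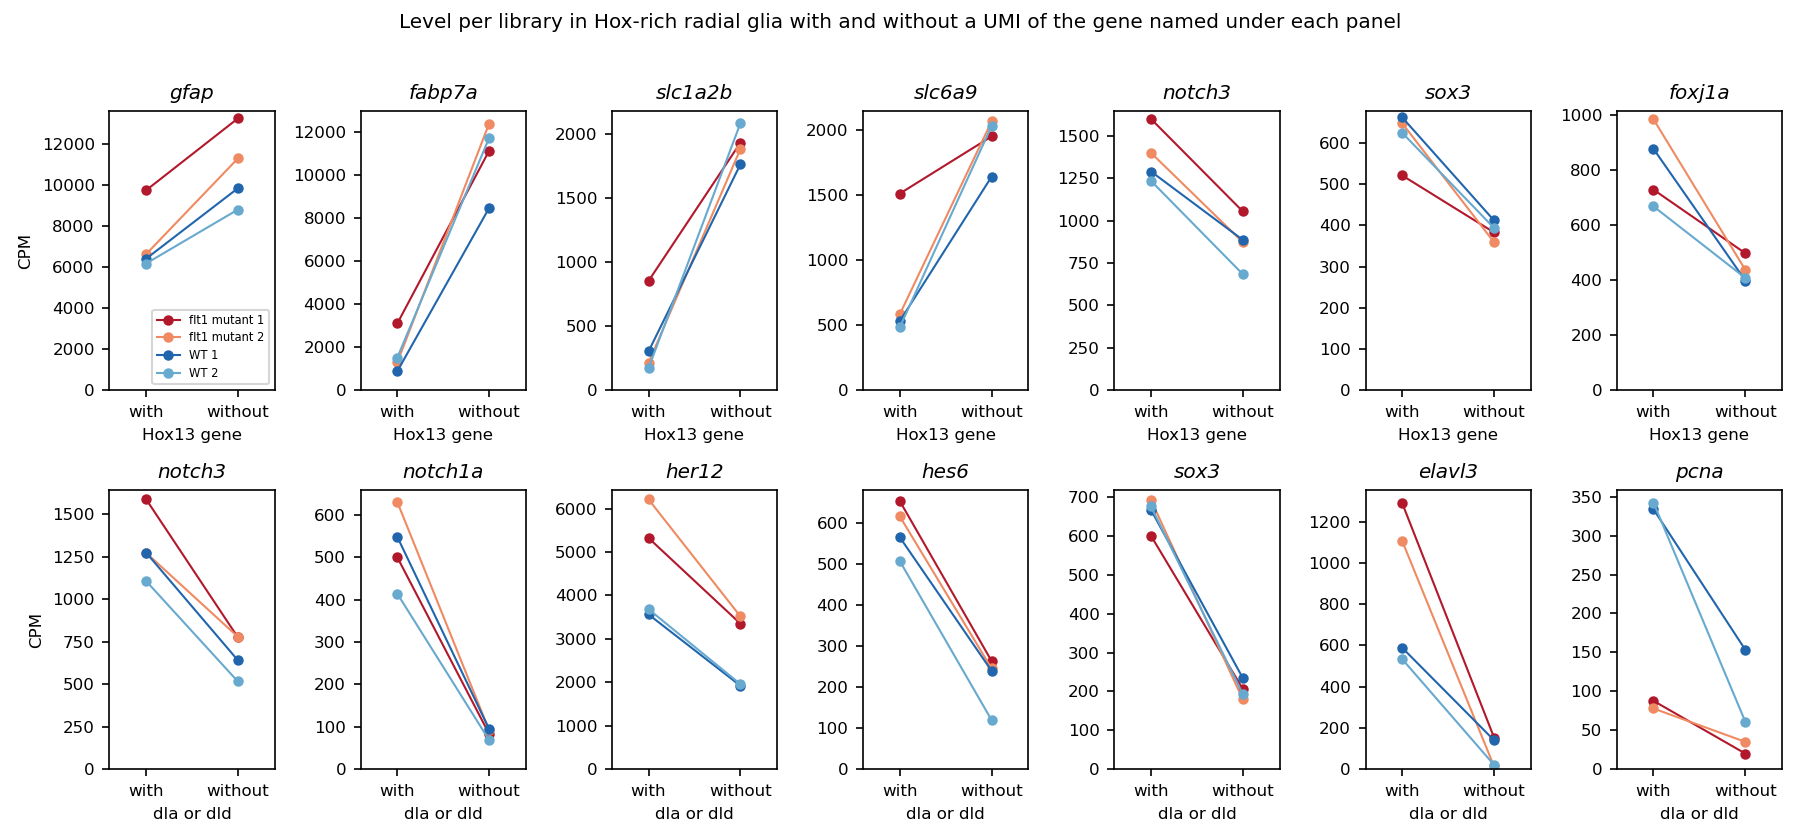
Each line joins, for a library, the level in CPM of a gene in core cells with (left) and without (right) a UMI of a Hox13 gene (upper row) or of dla or dld (lower row); axes start at 0. fabp7a, slc1a2b, slc6a9 and gfap were lower and notch3, sox3 and foxj1a higher in Hox13 cells of 4 of 4 libraries, and the 7 genes of the lower row were higher in cells with a Delta UMI in 4 of 4 libraries.

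foxj1a divided the core differently. Cells with it, 198 of 387, had 7077 ± 858 CPM of vim, against 2278 ± 695 CPM in cells without, 222 CPM of enkur, against 24.8 CPM, and 181 CPM of bmp4, against 5.05 CPM, each higher in 4 of 4 libraries. dla was at 428 CPM, against 847 CPM, and elavl3 at 344 CPM, against 739 CPM, each lower in 4 of 4 libraries. foxj1a was found in 58 of the 75 nkx6 cells (77.3%) and in 47 of the 68 olig2 cells (69.1%). Cells with foxj1a were deeper, with median UMIs of 6652 and 5794 in flt1 mutants and 6764.5 and 6031 in WT, against 4580.5 and 4614.5 in flt1 mutants and 5973 and 4475 in WT in cells without, and the part of depth in this split was not tested. A list of stress and immediate early genes took 153 and 153 UMIs per 10000 of the foxj1a cells in flt1 mutants and 166 and 178 in WT, against 93.0 and 113 in flt1 mutants and 83.0 and 71.0 in WT in the others.

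The share of radial glia among retained cells was lower in both flt1 mutant libraries than in either WT library. It was 3.11% (95% Clopper-Pearson interval 2.61 to 3.67) and 2.62% (2.22 to 3.08) in flt1 mutants, against 5.36% (4.58 to 6.22) and 4.55% (4.06 to 5.07) in WT, intervals that cover counting error only. The means were 2.86 ± 0.34% in flt1 mutants and 4.95 ± 0.57% in WT (SD, n = 2 libraries each), a difference of -2.09 percentage points. The exact two-sided permutation test gave p = 0.333, the smallest that 2 against 2 libraries allow. As a share of neural cells (radial glia, neuron-like and floor plate-like) the values were 33.8% and 31.7% in flt1 mutants, against 31.2% and 35.8% in WT, and overlapped, with a difference of -0.80 (exact permutation p = 1). Hox-rich radial glia were 2.83% and 1.83% of retained cells in flt1 mutants, against 3.55% and 2.35% in WT, and overlapped (difference -0.62, exact permutation p = 0.667). The core was 2.34% and 1.44% in flt1 mutants, against 2.66% and 1.87% in WT, and overlapped too (-0.38, exact permutation p = 0.667). Head-profile cells differed by -0.95 percentage points, with shares of 0.0464% and 0.485% in flt1 mutants, against 1.08% and 1.35% in WT.

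Dividing radial glia were counted as cells with at least 2 of 14 mitosis genes among 2000 UMIs drawn per cell. Too shallow for this were 10 and 16 cells in flt1 mutants and 12 and 31 in WT. Dividing cells were 5.65% (7 of 124) and 21.5% (28 of 130) in flt1 mutants, against 21.2% (32 of 151) and 23.4% (64 of 273) in WT. The mean difference was -8.73 percentage points (exact permutation p = 0.667), and it was -0.78 without flt1 mutant 1, the library that held 2 head-profile cells, and -16.7 without flt1 mutant 2. Among head-profile cells the share was 70.4% (19 of 27) in flt1 mutant 2, against 48.5% (16 of 33) and 53.5% (46 of 86) in WT. In the Hox-rich core it was 3.09% (3 of 97) in flt1 mutant 1 and 0 of 76 cells in flt1 mutant 2, where 3 counts would be 3.95% and the Clopper-Pearson interval reaches 4.74%, against 15.19% (12 of 79) and 5.69% (7 of 123) in WT. There the difference was -8.89 percentage points with an exact permutation p of 0.333, again the smallest possible, and the WT libraries differed from each other more than the nearer of them did from flt1 mutants. In neuron-like cells the share was 3.85 ± 0.33% in flt1 mutants and 3.76 ± 1.77% in WT, and in epidermis-like cells 4.47% in flt1 mutants and 4.93% in WT. In floor plate-like cells it was 7.21 ± 4.31% in flt1 mutants and 20.6 ± 4.09% in WT, again with non-overlapping libraries and p = 0.333 in the exact permutation test. These floor plate-like shares rest on 4 of 39 and 1 of 24 cells in flt1 mutants, against 4 of 17 and 11 of 62 in WT. Their Clopper-Pearson intervals overlapped, at 2.87 to 24.2% and 0.105 to 21.1% in flt1 mutants, against 6.81 to 49.9% and 9.20 to 29.5% in WT. Without thinning the difference over all radial glia was -11.9 percentage points.

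**Figure D4:**
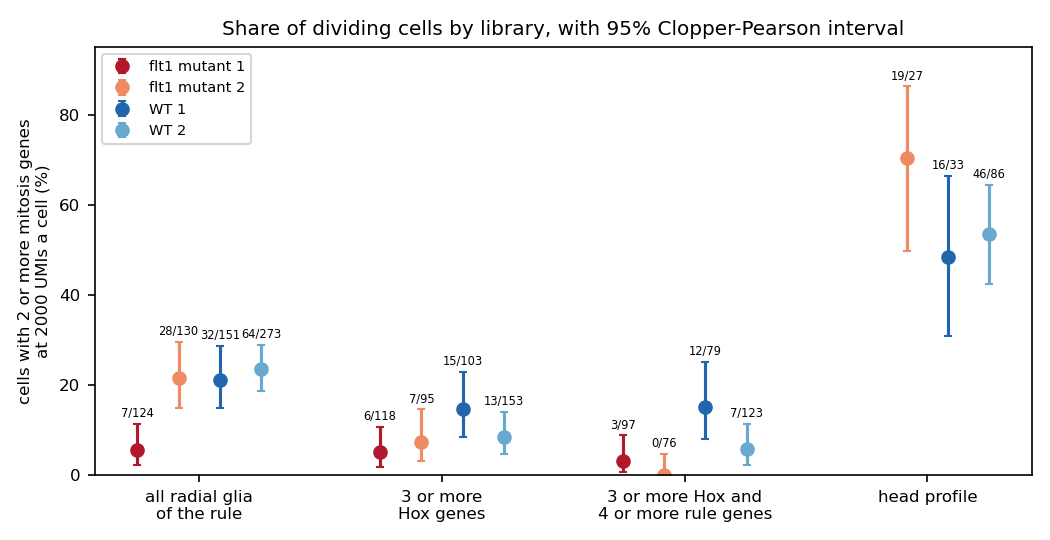
Points are the percentage of cells with at least 2 mitosis genes at 2000 UMIs per cell in each library, bars the 95% Clopper-Pearson interval (counting error only), and labels the dividing and all cells; the 2 head-profile cells of flt1 mutant 1 are left out. Head-profile cells had the highest shares, at 48.5% to 70.4%, and among Hox-rich and core cells both flt1 mutant libraries lie below both WT libraries. With at least 3 mitosis genes the libraries of Hox-rich cells overlapped.

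Genes were compared between genotypes on UMI sums per library with edgeR, and 0 of 8520 genes tested (0%) passed an adjusted p of 0.05 over all radial glia. At an unadjusted p under 0.05, 448 genes were higher (5.26%) and 399 lower (4.68%) in flt1 mutants. DESeq2 called 38 genes, 10 higher and 28 lower. Leaving out 1 library gave between 1 and 41 called genes, with 41 without flt1 mutant 2 and 21 without WT 1. In the core, 1 of 6201 genes was called (0.0161%), 3.84% were higher and 4.63% lower at an unadjusted p under 0.05, and 337 were called when WT 2 was left out and 37 when WT 1 was left out.

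Given first are the 4 genes of smallest p that were higher in flt1 mutants, taken among genes whose libraries did not overlap. The choice thus fixed that their libraries are apart, and none was called over all radial glia. UMI counts come from sums that were larger in WT, as given above. zgc:195170, a gene whose function is not annotated in the files, had 212 and 149 UMIs in flt1 mutants, against 0 and 2 in WT, a count ratio of 351 (95% interval 96.4 to 2908, from UMIs summed over libraries and so for counting error only, as for the ratios that follow) with an adjusted p of 0.083. It was the gene called in the core, with 180 and 144 UMIs in flt1 mutants, against 0 and 1 in WT, a count ratio of 409 (72.8 to 16193) and an adjusted p of 0.0075. In neuron-like cells it had 10.5 and 15.22 CPM in flt1 mutants, against 0.97 and 1.25 CPM in WT, where radial glia had 211 and 143 CPM in flt1 mutants, against 0 and 0.79 CPM in WT. The genotype effect was 4.92 ± 1.11 larger in radial glia on the log2 scale (unadjusted p = 0.0032, adjusted p = 0.705), so the difference between the classes was not called. In radial glia the log2 fold change of zgc:195170 ran from 7.48 to 10.69 over the settings tried, and it was called in 12 of the 22 alternatives.

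In radial glia of flt1 mutants, si:ch211-121a2.2 had 79 and 125 UMIs, against 2 and 3 UMIs in WT, a count ratio of 79.3 (95% interval 33.4 to 247) and a log2 fold change of 6.11 ± 0.40 (SE, adjusted p = 0.083). The gene differed likewise in other cells, with 203 and 208 CPM in epidermis-like cells of flt1 mutants, against 5.49 and 5.19 CPM in those of WT, and the effect in radial glia minus that in neuron-like cells was 0.09 (95% interval -1.61 to 1.78). ly6m5, of the Ly6 family of small cell surface proteins, had 67 and 69 UMIs in flt1 mutants, against 8 and 14 in WT (log2 fold change 3.47 ± 0.27, adjusted p = 0.0831). In epidermis-like cells ly6m5 was at 0.15 CPM or less. Over all other retained cells ly6m5 differed in the same direction, with 3.45 and 2.56 CPM in flt1 mutants, against 0.35 and 0.46 CPM in WT. rcn2, a calcium binding protein of the endoplasmic reticulum, had 67 and 84 UMIs in flt1 mutants, against 26 and 29 in WT (2.27 ± 0.28, adjusted p = 0.286). Over all other retained cells rcn2 had 11.5 and 14.4 CPM in flt1 mutants, against 6.21 and 3.64 CPM in WT. In the core ly6m5 differed by 2.93 ± 0.49 and rcn2 by 1.84 ± 0.32 on the log2 scale, neither called.

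The 4 genes of smallest p that were lower in flt1 mutants, again taken among genes without overlap, included the skin keratins krt4 and cyt1. krt4, a keratin of the outer skin layer, had 1872 and 2951 UMIs in flt1 mutants, against 15498 and 30127 in WT (log2 fold change -2.36 ± 0.27, adjusted p = 0.286). The keratin cyt1 had 1145 and 1500 UMIs in flt1 mutants, against 8970 and 15915 in WT (-2.36 ± 0.21, adjusted p = 0.0995). The inflammatory caspase gene caspb had 25 and 28 UMIs in flt1 mutants, against 174 and 286 in WT (-2.25 ± 0.20, adjusted p = 0.0995), and in epidermis-like cells 1004 and 953 CPM in flt1 mutants, against 976 and 621 CPM in WT. ponzr3 had 8 and 10 UMIs in flt1 mutants, against 87 and 228 in WT (-3.20 ± 0.38, adjusted p = 0.286). In the core krt4 had 801 and 731 CPM in flt1 mutants, against 6086 and 801 CPM in WT, so only WT 1 was high. krt4 and cyt1 belong to the skin list given above, and the part of skin transcripts in other genes was not tested.

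Replication and mitosis genes had lower values in flt1 mutants in most members of both lists. Of 12 replication genes, 7 had an unadjusted p under 0.05, all lower, the libraries did not overlap for 10, all lower, and the median log2 fold change was -1.09, against 0.00 over all genes tested. Not overlapping and lower was the case for 22.2% of all genes, and lower at an unadjusted p under 0.05 for 4.68%. mcm3, a subunit of the replicative helicase, had 16 and 23 UMIs in flt1 mutants, against 105 and 149 in WT (-1.86 ± 0.26, adjusted p = 0.328). mcm2 had 25 and 47 UMIs in flt1 mutants, against 138 and 204 in WT (-1.41 ± 0.31, adjusted p = 0.406). Of 14 mitosis genes, 3 had an unadjusted p under 0.05, all lower, and 10 did not overlap, all lower, with a median of -1.10. Without flt1 mutant 2 the median of the mitosis genes was -2.62, and without flt1 mutant 1 it was -0.41. ccnb1, the mitotic cyclin, had 26 and 58 UMIs in flt1 mutants, against 164 and 217 in WT (-1.36 ± 0.37, adjusted p = 0.441). Head-profile cells, which had higher shares of dividing cells and were scarcer in flt1 mutants, are part of these sums.

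The direction was the same in the core, where head-profile cells are absent. There 8 of 11 replication genes and 10 of 11 mitosis genes had an unadjusted p under 0.05, all lower in flt1 mutants, against 4.63% of all genes. Their medians were -1.53 and -2.94, against 0.00 over all genes. With TMM scaling, not overlapping and lower was the case for 9 and 11 of them, against 21% of all genes, and by plain library totals for 9 and 10. pcna, the clamp of the replication fork, had 40 and 28 UMIs in flt1 mutants, against 160 and 191 in WT (-2.16 ± 0.18, adjusted p = 0.0595). mki67, which coats mitotic chromosomes, had 60 and 5 UMIs in flt1 mutants, against 262 and 69 in WT, and its groups overlapped when scaled by plain library totals, at 87.2 and 10.3 CPM in flt1 mutants, against 437 and 78.3 CPM in WT. WT 1 carried most of the mitosis list, which took 2.397 and 0.494 UMIs per 10000 of the core in flt1 mutants, against 18.2 and 3.88 in WT, and it was also the library with high skin genes. Leaving out 1 library leaves 1 in its group, so for these lists only median log2 fold changes are given for it. How far the counts of genes at an unadjusted p under 0.05 depend on a single library is thus not shown. The numbers of called genes given above for fits without 1 library have the same limit. Without WT 1 the medians were -1.56 for mitosis and -2.12 for replication genes, and without WT 2 they were -3.62 and -1.34. Without flt1 mutant 1 they were -4.78 and -1.62, and without flt1 mutant 2 they were -2.20 and -1.70. Over all genes tested the medians of these fits ran from -0.033 to 0.027. With all 4 libraries no gene of these lists was called, and they rest on 3 and 0 dividing core cells in flt1 mutants, against 12 and 7 in WT, at 2000 UMIs. In neuron-like cells 1 of 12 replication genes and 0 of 13 mitosis genes were lower at an unadjusted p under 0.05, against 2.13% of all genes. Their medians were -0.12 and -0.18.

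Genes that hold cells out of the cycle leaned the other way over all radial glia. Of 8 tested, 6 did not overlap and were higher in flt1 mutants, against 22.6% of all genes, and the median was 0.36. btg2, an antiproliferative factor, had 1680 and 1361 CPM in flt1 mutants, against 968 and 924 CPM in WT (log2 fold change 0.60 ± 0.19, adjusted p = 0.466). cdkn1ca, an inhibitor of cyclin dependent kinases, differed by 0.85 ± 0.27, and in the core by 0.78 ± 0.19, neither called. In the core 2 of 6 were higher and 1 lower without overlap, against 20.3% and 21% of all genes, and the median was 0.15. At an unadjusted p under 0.05, 2 of the 6 were higher and 0 lower there, against 3.84% and 4.63% of all genes.

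**Figure D5:**
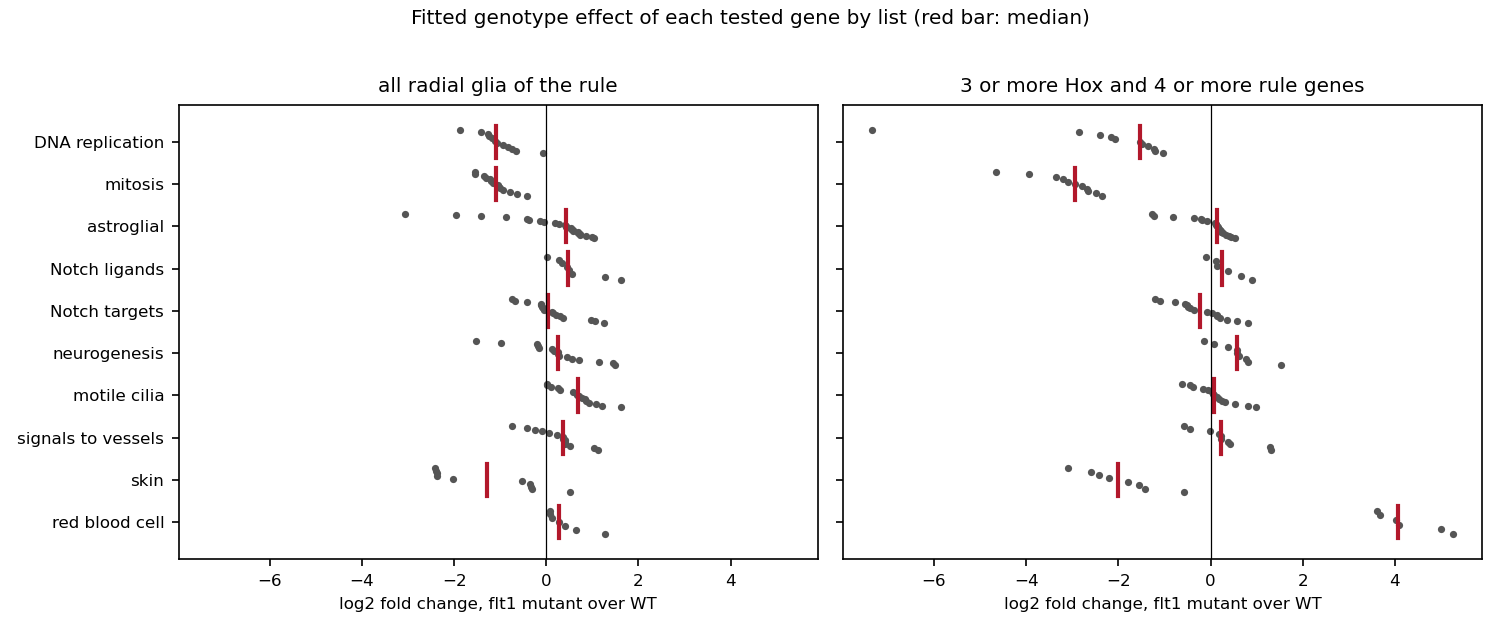
Points are the log2 fold changes, flt1 mutant over WT, of each tested gene of 10 lists in all radial glia (left) and in the Hox-rich core (right), and red bars the list medians. Replication and mitosis genes lie below 0 in both, the cilia median of 0.68 over all radial glia is 0.07 in the core, and red blood cell genes of the core lie near 4, where flt1 mutant 1 was high.

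Notch genes showed small differences that depended on the cells taken. All 8 ligand genes tested had a positive log2 fold change over all radial glia, with a median of 0.47, and 4 did not overlap, all higher, against 22.6% of all genes, but none had an unadjusted p under 0.05. dla differed by 0.45 ± 0.20 and dld by 0.49 ± 0.21, and in the core dla by 0.65 ± 0.19. Of 16 targets, 3 were higher and 1 lower at an unadjusted p under 0.05, against 5.26% and 4.68% of all genes, with a median of 0.03. Without overlap 4 targets were higher and 3 lower, against 22.6% and 22.2% of all genes. her12, at the levels given above, was higher in both flt1 mutant libraries (1.05 ± 0.18, 95% interval 0.59 to 1.51, adjusted p = 0.355), and differed by 0.57 ± 0.13 in the core. heyl differed by 0.97 ± 0.30, and by 0.37 in the core. her2 had 272 and 285 CPM in flt1 mutants, against 498 and 386 CPM in WT (-0.74 ± 0.18, adjusted p = 0.428), and differed by -1.20 ± 0.20 in the core. In the core 1 target was higher and 5 lower at an unadjusted p under 0.05, against 3.84% and 4.63% of all genes, with a median of -0.22. Without overlap 3 of the 16 were higher and 9 lower there, against 20.3% and 21% of all genes. More targets were thus lower than higher in the core, but they did not all move in the same direction. The receptors notch3, notch1a and notch1b differed by 0.43 ± 0.22, 0.29 ± 0.21 and -0.17 ± 0.17.

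Astroglial, cilia and Hox genes had positive medians, higher in flt1 mutants, over all radial glia and medians near 0 in the core. Of 24 astroglial genes 12 were higher and 3 lower without overlap, with a median of 0.42. In the core 7 of 21 were higher and 3 lower, with a median of 0.15. At an unadjusted p under 0.05, 5 astroglial genes were higher and 2 lower over all radial glia. In the core 1 was higher and 3 were lower by that measure. Of 16 cilia genes 11 were higher and 0 lower without overlap, with a median of 0.68, and 8 had an unadjusted p under 0.05, all higher. In the core 5 of 15 were higher and 2 lower without overlap, with a median of 0.07. There 0 cilia genes were higher and 1 was lower at an unadjusted p under 0.05. foxj1a differed by 0.65 ± 0.24, and by 0.05 ± 0.15 in the core. Of 42 Hox genes 21 were higher and 0 lower without overlap, with a median of 0.59. In the core, which was chosen on Hox genes, 7 of 41 were higher and 7 lower, with a median of 0.01. Background for higher without overlap was 22.6% over all radial glia and 20.3% in the core, and for lower 22.2% and 21%. At an unadjusted p under 0.05 it was 5.26% higher and 4.68% lower over all radial glia. In the core it was 3.84% higher and 4.63% lower. The share of Hox-rich cells was higher in both flt1 mutant libraries and its part in these lists was not tested, since the core changed the number of rule genes and of Hox genes together.

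Neurogenesis and patterning genes did not all move in the same direction. Of 16 neurogenesis genes 5 were higher and 0 lower at an unadjusted p under 0.05, against 5.26% and 4.68% of all genes. Their median was 0.25, and without overlap 6 were higher and 3 lower, against 22.6% and 22.2% of all genes. In the core 2 of 9 were higher at an unadjusted p under 0.05, against 3.84% of all genes, with a median of 0.58. There 8 of the 9 had a positive log2 fold change. Without overlap 5 were higher and 1 lower, against 20.3% and 21% of all genes. The proneural gene neurog1 had 25.9 and 22.96 CPM in flt1 mutants, against 9.62 and 10.7 CPM in WT (log2 fold change 1.15 ± 0.30, adjusted p = 0.429), and sox4a 102 and 112 CPM in flt1 mutants, against 78.3 and 60.5 CPM in WT (0.55 ± 0.19, and 0.77 ± 0.21 in the core). The proneural gene ascl1a, with 2 and 24 UMIs in flt1 mutants, against 63 and 66 in WT, was higher in head-profile cells, which had 74.0 CPM of it, against 8.79 CPM in the core. Of 15 dorsal genes lmx1bb was higher, with 53.7 and 54.5 CPM in flt1 mutants, against 20.6 and 21.3 CPM in WT (1.27 ± 0.23, adjusted p = 0.367), and gsx1 lower, with 15.9 and 21.0 CPM in flt1 mutants, against 37.1 and 39.1 CPM in WT (-1.13 ± 0.28, adjusted p = 0.429). The 10 intermediate and 3 ventral genes had no unadjusted p under 0.05, and olig2 differed by 0.43 ± 0.21.

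The study asked which neural signals reach blood vessels in flt1 mutants, so vessel-directed ligands were read in the radial glia. Of 41 such genes 39 were in the files, 6 had no UMI in radial glia, and 14 were tested. None of the 14 had an unadjusted p under 0.05, and in the core 2 of 10 did, vegfaa and efnb2a, both higher, against 3.84% of all genes. vegfaa, the main Vegf of zebrafish vessels, had 32.8 and 35.4 CPM in flt1 mutants, against 46.7 and 24.1 CPM in WT, a log2 fold change of -0.10 (95% interval -0.95 to 0.75). At 2000 UMIs it was seen in 3.69% of radial glia and 3.54% of epidermis-like cells. apln, the Apelin ligand, had 14 and 6 UMIs in flt1 mutants, against 19 and 44 in WT (-0.75, 95% interval -2.01 to 0.51), and was seen in 2.80% of radial glia, 2.92% of neuron-like, 9.15% of floor plate-like and 0.528% of epidermis-like cells.

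The chemokine gene cxcl12a had 53.7 and 155 CPM in flt1 mutants, against 37.8 and 105 CPM in WT, with overlapping libraries (0.41 ± 0.68), and was seen in 9.14% of radial glia, 21.1% of floor plate-like and 1.92% of epidermis-like cells. wnt7aa, which in mice instructs brain vessels to form a barrier together with its paralogue, had 159 and 91.8 CPM in flt1 mutants, against 104 and 81.4 CPM in WT (0.36, 95% interval -0.40 to 1.12). It was seen in 16.1% of radial glia, 24.8% of the core and 19.0% of floor plate-like cells, against 0.625% of neuron-like and 2.04% of epidermis-like cells. In the core vegfaa had 24 and 20 UMIs in flt1 mutants, against 4 and 17 in WT (1.31 ± 0.51), and efnb2a, an ephrin ligand, differed with a 95% interval of 0.12 to 2.48, neither called. efnb2a was seen in 11.1% of radial glia and 9.35% of epidermis-like cells. esm1 had 66 UMIs in 9 radial glia and kdrl 32 UMIs in 22.

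The genotype effect was compared with that in neuron-like cells of the same libraries. In neuron-like cells 0 of 10282 genes were called (0%), with 2.65% higher and 2.13% lower at an unadjusted p under 0.05, 491 genes in all, and DESeq2 called 21. The effect in radial glia minus that in neuron-like cells was called for 0 of 11429 genes (0%), with 2.41% higher and 3.04% lower at an unadjusted p under 0.05, 624 genes in all, and DESeq2 called 12. krt4 differed by -2.60 ± 0.38 between the classes (adjusted p = 0.336), with 0.09 ± 0.54 in neuron-like cells. rcn2 differed by 1.22 ± 0.50 (adjusted p = 0.899). Leaving out 1 library gave between 0 and 120 genes, with 120 without flt1 mutant 2.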

How the data were processed

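Whole trunks of flt1 mutant and WT embryos at 3 dpf were measured, in 2 libraries each. The deposited matrices hold whole, unnormalized UMI counts of 25432 genes in each barcode, written by Cell Ranger 6.1.1 per the file headers. The labels name genome build GRCz11 and version 2 of the chemistry, the study's methods version 3, and the files do not settle which was used. The authors' later normalization and clustering are not in these counts. No sequences or coordinates are given, since the annotation used here describes another assembly.

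The study's own limits on genes and mitochondrial UMIs were applied, and the rule above then chose cells with no clustering. Doublets were left in, and an alternative left out the 5% of each library with the highest Scrublet score (scanpy 1.11.5). The members, the 39 gene lists and the rules were chosen with earlier results of these data known. The Hox-rich core, the head profile and the splits within the core were chosen after seeing the data.

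UMI counts were summed per library and compared with edgeR 4.0.16 in R 4.3.3 (quasi-likelihood test, TMM scaling, its filter on low counts, Benjamini-Hochberg adjustment over all genes tested, called at an adjusted p under 0.05). Fold changes are flt1 mutant over WT on the log2 scale with SE. The difference of effects used an interaction term with the library as a block. DESeq2 1.42.0 was an alternative. Shares were compared by exact permutation, two-sided, and carry 95% Clopper-Pearson intervals. For shares of cells with a UMI, each cell was thinned to 2000 UMIs. Libraries held 48823693 to 85429263 UMIs. The code for the gene test was tested on simulated data.

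Genes named in the genotype test were the 4 of smallest p in each direction among genes whose libraries did not overlap between genotypes. This number was taken since fewer genes were called. Genes named by level were the 15 of largest ratio over neuron-like cells, the 15 over all other retained cells and the 15 of largest variance, and any member of a list could be named with its list. No set test was run, so lists are given by counts and medians beside those of all genes tested.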

Additional observations from a re-analysis of the deposited data

How the results depend on the processing

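Over all radial glia 0 genes were called. DESeq2 gave 38, library totals in place of TMM 2, no count filter 128, at least 4 rule genes 1, no dividing cells 2, and leaving out 1 library 1 to 41 (41 without flt1 mutant 2, 21 without WT 1). After seeing the data, the Hox-rich core was added and gave 1, leaving out 1 library in it 0 to 337 (37 without WT 1, 337 without WT 2), and leaving out head-profile cells 2. In neuron-like cells the count of 0 became 21 with DESeq2, 42 with library totals and 2 with no filter, and stayed 0 when any library was left out. For the difference between the classes it became 12 with DESeq2, 164 with no filter and 0 to 120 when 1 library was left out (120 without flt1 mutant 2).

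No label ties libraries of the same replicate number, whose deviations correlated at -0.12 in radial glia and 0.30 in neuron-like cells, and the fit with the replicate block gave 0 calls in either. The crossed pairing, added after seeing the data, also gave 0. Without the library block the difference between the classes gave 0.

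The share of radial glia and the share dividing kept their direction in each alternative run. With at least 2 rule genes the share differed by -4.36 percentage points, and the dividing share by -13.6 on replication genes and -13.5 with at least 4 rule genes, all with an exact permutation p of 0.333, and 2 libraries a group allow no p under 0.333. Hox-rich cells with at least 3 mitosis genes were 2.54% and 5.26% in flt1 mutants, against 14.6% and 4.58% in WT. These libraries overlapped (exact permutation p = 0.667). ponzr3 changed direction once, to 0.071 on the log2 scale in the core without flt1 mutant 2. Removing every cell with at least 2 skin, muscle or blood genes above 1 UMI was not run, since it left 0 radial glia. Genes with few UMIs, such as apln, are limited by depth.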
